A study of Mus musculus with 2 samples.

Results

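The genes described here are 10 Wnt pathway targets and feedback regulators of the intestinal crypt: Myc, Ccnd1, Sox9, Cd44, Nkd1, Znrf3, Rnf43, Lgr4, Tcf7l2 and Ctnnb1. They were taken by symbol from a list drawn up for these data, and 10 of the 10 were among the 17044 genes of the deposited table. The samples were 2 libraries in 1 group, colon epithelium of wild-type C57BL/6 mice, labelled as 2 weeks after exposure to irradiation. The series is titled for the repair of radiation proctitis by grafted colonoids (crypt organoids), but no label separates graft-derived from host cells, and none says whether the libraries came from separate animals. The table gives, for each gene, its average over the cells of each of 12 clusters, numbered 0 to 11, in UMIs (unique molecular identifiers, 1 per captured RNA molecule) per 10000 UMIs of a cell. Libraries and cell barcodes are not in its columns, so each level is without a replicate, clusters could not be tested against each other, and barcodes shared by the libraries could not be counted; 95% intervals cover counting error only. Unirradiated samples were not analysed here.

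In the crypt, Wnt ligands bind Frizzled and LRP receptors and stop a destruction complex from marking beta-catenin for degradation. Beta-catenin then enters the nucleus and works with TCF factors to switch on genes that keep stem and progenitor cells dividing. Part of this programme feeds back: ZNRF3 and RNF43 remove Frizzled from the cell surface, LGR receptors bound by R-spondins hold those ligases in check, and NKD1 acts on Dishevelled inside the cell. Beta-catenin also has a structural role, in which it ties E-cadherin to the cytoskeleton at cell junctions, and that role does not need Wnt.

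The arithmetic of the low averages gave 3082 cells in all, with 19 in the smallest cluster and 482 in the largest. The depth of 2337 cells was recovered (median 12147 UMIs), and clusters 5 and 6 were shallow, with medians of 1407 and 2373 UMIs against 19522 in cluster 7, the deepest. Cluster 0 was goblet-like (10 of 10 markers highest there), cluster 7 proliferating-like (10 of 10), cluster 11 enteroendocrine-like (10 of 10), cluster 8 absorptive colonocyte-like (5 of 10) and cluster 5 neutrophil-like (7 of 8). The others are given by number. Epcam, the pan-epithelial adhesion gene, was at 14.9 to 37.6 per 10000 in all clusters except 5 and 10, where it was at 3.83 and 2.89. Ptprc, which marks leukocytes of all kinds, reached 3.69 in cluster 5 and 1.78 in cluster 10 but at most 0.0827 elsewhere, so clusters 5 and 10 are set apart in what follows. The clusters were made from these same values, so differences between them are a description.

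Positions are those of whole protein-coding genes in GENCODE M21 on the mouse build GRCm38. Myc is at chr15:61985391-61990374 on the plus strand, Ccnd1 at chr7:144929931-144939925 on the minus strand, Sox9 at chr11:112782224-112787760 on the plus strand and Cd44 at chr2:102811141-102901665 on the minus strand. Nkd1 is at chr8:88521354-88594884 and Rnf43 at chr11:87662722-87735539, both on the plus strand, and Znrf3 at chr11:5276324-5444847 on the minus strand. Lgr4 is at chr2:109917647-110014257, Tcf7l2 at chr19:55741820-55933654 and Ctnnb1 at chr9:120929216-120960507, all on the plus strand. Nkd1, Rnf43, Tcf7l2 and Ctnnb1 overlap another gene annotated there on the same strand (Gm45496, 1110028F11Rik, Ppnr and Mir7090). Whether these were in the annotation used for counting is not given, so any effect on the levels was not tested.

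Promoter windows of RefSeq on GRCm38.p6, 250 bases before to 50 after a start, were given for 6 of the members (Cd44, Lgr4, Nkd1, Ctnnb1, Rnf43 and Tcf7l2; 9 windows). They were searched on both strands for CTTTGAA and CTTTGAT, letters that TCF factors are known to prefer. None of the 9 windows held either, and 8.65% of all 32851 windows did. The shorter CTTTG, with which both longer motifs begin, was in 3 of the 9 windows on either strand, against 53.9% of all. These 3 stretches are shown because they are the members' only matches to the TCF core, in Cd44, a target, and at 2 starts of Tcf7l2, the TCF gene itself; capitals mark CTTTG or, where it lies on the opposite strand, CAAAG. A match describes letters and is no bound site.
Cd44 chr2:102901799-102901853, minus strand: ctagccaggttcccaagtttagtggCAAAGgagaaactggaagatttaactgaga
Tcf7l2, first start, chr19:55741674-55741728, plus strand: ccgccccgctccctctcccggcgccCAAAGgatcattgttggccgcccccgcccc
Tcf7l2, downstream start, chr19:55895282-55895320, plus strand: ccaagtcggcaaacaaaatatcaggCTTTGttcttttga

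The levels fell into 2 patterns among the epithelial clusters, grouped here after their values were seen. Myc, Ccnd1, Sox9, Znrf3 and Rnf43 were highest in clusters 6, 7 or 2, and Myc, Ccnd1 and Znrf3 were close to 0 in clusters 4 and 8. Lgr4, Tcf7l2 and Ctnnb1 had another order, with their 2 highest levels in clusters 4 and 8. In the proliferating-like cluster 7 they were below both of these, although Ctnnb1 still had rank 5 there, at 2.22. Cd44 belonged to the first pattern among epithelial clusters but was highest by far in the neutrophil-like cluster. Nkd1 was barely detected.

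**Figure D1:**
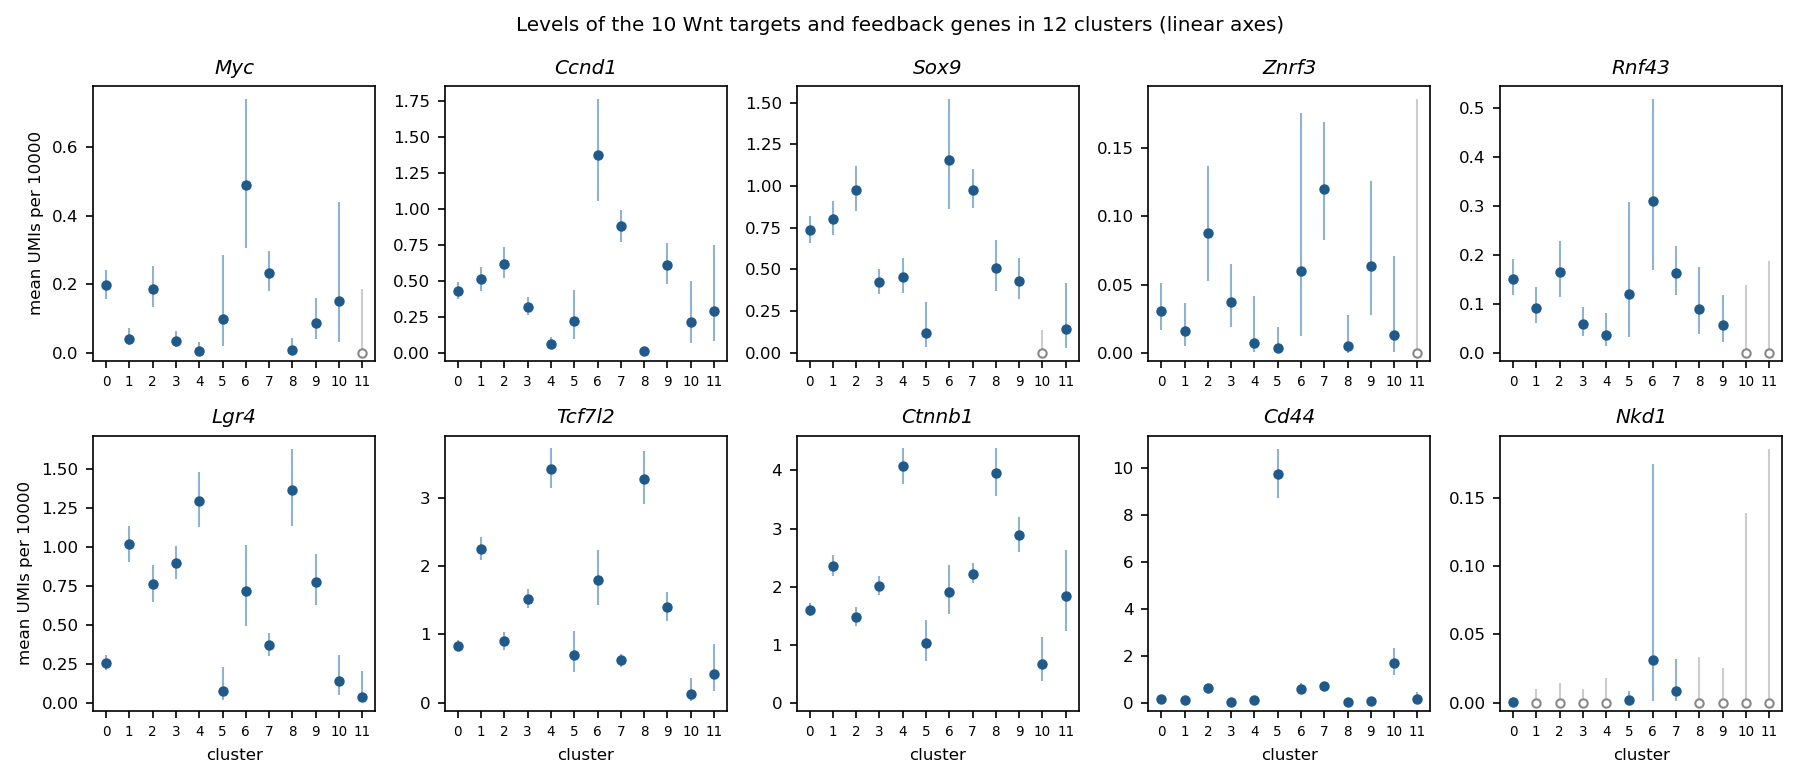
Mean level of each member (vertical axis, UMIs per 10000, linear, a separate scale per gene) in clusters 0 to 11 (horizontal axis), with exact Poisson 95% intervals for counting error only; open grey points are levels of 0, with bars to the limit that 3 UMIs allow. Myc and Ccnd1 peak in cluster 6 and nearly vanish in clusters 4 and 8, where Lgr4, Tcf7l2 and Ctnnb1 peak, and Cd44 stands at 9.72 in cluster 5.

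Myc encodes a transcription factor that drives growth and ribosome production and is a classical target of beta-catenin and TCF. Its level was 0.490 per 10000 in cluster 6 (95% interval 0.307 to 0.742), 0.232 in cluster 7 (0.179 to 0.296), 0.197 in goblet-like cluster 0 (0.158 to 0.242) and 0.186 in cluster 2 (0.132 to 0.254). Clusters 7, 0 and 2 were not separable from each other, while the interval of cluster 6 lay just above that of cluster 7. Since intervals may be too narrow, the gap between 0.307 and 0.296 is not secure. In cluster 1 the level was 0.0412, in cluster 3 0.0353 and in cluster 9 0.0862. Myc was at 0.00544 in cluster 4, and its 0.00786 in cluster 8 came from 1 UMI in 1 cell. Cluster 11 was at 0, where 3 UMIs in its 19 cells would allow up to 0.186.

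Ccnd1 encodes cyclin D1, which starts the passage from G1 into S phase. It was at 1.37 per 10000 in cluster 6 (1.05 to 1.76), 0.877 in cluster 7 (0.771 to 0.994), 0.617 in cluster 2 (0.516 to 0.732) and 0.608 in cluster 9 (0.476 to 0.766). The intervals of clusters 6 and 7 each stood clear of the next, by small margins that narrow intervals do not secure. Clusters 2 and 9 overlapped. Cluster 1 followed at 0.510, cluster 0 at 0.429 and cluster 3 at 0.320. Cluster 4 fell to 0.0604 (0.0290 to 0.111), and cluster 8 to 0.00996 (0.00121 to 0.0360), read as 2 UMIs in 2 of its 197 cells. Clusters 8 and 9 thus lay far apart in Ccnd1, although 5 of the 10 colonocyte markers were highest in cluster 8 and 3 in cluster 9.

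Sox9 encodes a transcription factor of crypt base, Paneth-type and tuft cells, and it is known both as a Wnt target and as a brake on the pathway. It was the most evenly spread of the first set: 1.16 in cluster 6 (0.863 to 1.52), 0.978 in cluster 2 (0.850 to 1.12), 0.978 in cluster 7 (0.865 to 1.10), 0.803 in cluster 1 and 0.735 in cluster 0. No neighbouring pair in its order of 12 clusters was separated by its intervals. The epithelial minimum apart from cluster 11 was 0.423 in cluster 3 (0.354 to 0.502), and clusters 4 and 8 held 0.452 and 0.507. In cluster 11 it was at 0.142, from 3 UMIs in 3 cells, and in cluster 10 at 0.

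Znrf3 and Rnf43 encode the paired membrane E3 ligases that clear Frizzled receptors, and both are induced by the signal they dampen. Znrf3 was highest in cluster 7 at 0.120 (0.0829 to 0.169), followed by cluster 2 at 0.0878 (0.0528 to 0.137), cluster 9 at 0.0640 and cluster 6 at 0.0602 (0.0124 to 0.176). Goblet-like cluster 0 held 0.0304, cluster 1 held 0.0157 and cluster 4 held 0.00747, and its level of 0.00501 in cluster 8 was 1 UMI in 1 cell. Rnf43 was highest in cluster 6 at 0.309 (0.169 to 0.519), then 0.165 in cluster 2, 0.162 in cluster 7 (0.118 to 0.217) and 0.152 in cluster 0 (0.118 to 0.192), whose intervals all overlap. In the absorptive colonocyte-like cluster 8 Rnf43 was at 0.0890 (0.0384 to 0.175), and with 1 UMI of Znrf3 there the genes of the pair could not be told apart relative to their highest levels.

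Nkd1, which encodes a Dishevelled-binding inhibitor and is among the more specific Wnt targets of the gut, was at 0 in 8 of the 12 clusters. Its highest level, 0.0315 in cluster 6, came from 1 UMI in 1 cell, and the 0.000693 in cluster 0 and 0.00158 in cluster 5 were each 1 UMI in 1 cell as well. Cluster 7 was at 0.00881 (0.00107 to 0.0318). No order of clusters can be read from these values.

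Lgr4 encodes an R-spondin receptor that, unlike its stem cell relative Lgr5, is known to be present along the whole crypt axis. It was highest in clusters 8 and 4, at 1.37 (1.13 to 1.63) and 1.29 (1.12 to 1.48), and at 1.02 in cluster 1, 0.896 in cluster 3, and 0.719 to 0.776 in clusters 6, 2 and 9. The proliferating-like cluster 7, at 0.367 (0.299 to 0.445), lay below all of these with no overlap with cluster 6, and goblet-like cluster 0 was at 0.255 (0.211 to 0.306). Lgr5 had another order: 0.117 in cluster 6 (0.0380 to 0.273), 0.115 in cluster 7 (0.0785 to 0.162) and 0.0328 in cluster 2. It was at 0 in clusters 4 and 8, where 3 UMIs would allow up to 0.0182 and 0.0336. Lgr6, the remaining family member, was not analysed here.

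Tcf7l2 encodes TCF4, the main TCF partner of beta-catenin in the gut. Its levels were 3.42 in cluster 4 (3.15 to 3.72) and 3.28 in cluster 8 (2.91 to 3.68), which overlap, then 2.25 in cluster 1 (2.09 to 2.43), with 1.80 in cluster 6, 1.52 in cluster 3 and then 1.39 in cluster 9. Cluster 7 was at 0.616 (0.527 to 0.716), cluster 0 at 0.834 and cluster 2 at 0.894, so its lowest epithelial level outside cluster 11 (0.418) was in the cluster with the highest Mki67. Tcf7l1, which encodes TCF3, a factor that mostly represses, had another order, with clusters 0, 6 and 2 at 1.45, 1.44 and 1.33, against clusters 4, 8 and 9 at 0.403, 0.365 and 0.193. Tcf7 did not exceed 0.0287, in cluster 6, from 2 UMIs in 2 cells, and Lef1 was not analysed here.

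Ctnnb1 encodes beta-catenin itself, whose activity in the pathway is set mainly by protein stability. The 2 highest levels were 4.08 in cluster 4 (3.77 to 4.40) and 3.95 in cluster 8 (3.55 to 4.39), followed by 2.89 in cluster 9 (2.59 to 3.21), 2.36 in cluster 1, 2.22 in cluster 7 (2.05 to 2.41) and 2.01 in cluster 3. Its range over the 10 clusters other than 5 and 10 was 2.76-fold, from 1.48 in cluster 2 to the level of cluster 4. For Tcf7l2 the range was 8.19-fold and for Ccnd1 138-fold, both with an uncertain low end. That of Ccnd1 was 2 UMIs in cluster 8 (counting interval of the ratio 36.6 to 1165). That of Tcf7l2 was 0.418 in the 19 cells of cluster 11 (0.168 to 0.861). Leukocyte clusters were lower, at 1.02 in cluster 5 and 0.670 in cluster 10.

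Cd44 encodes a hyaluronan receptor that is a Wnt target in crypts and also an adhesion molecule of most leukocytes. The neutrophil-like cluster 5 held 9.72 per 10000 (8.71 to 10.8) and the immune cluster 10 held 1.68 (1.18 to 2.33), 5.77-fold apart. Among the other clusters it was at 0.704 in cluster 7 (0.609 to 0.810), 0.603 in cluster 2 (0.503 to 0.717) and 0.583 in cluster 6 (0.381 to 0.854), which overlap, and no higher than 0.173 in the rest, with 0.0378 in cluster 8 and 0.0128 in cluster 3. Neutrophil RNA differed among these 3 clusters: the 8 neutrophil markers summed to 41.6 in cluster 2, 3.02 in cluster 6 (2 of 8 at 0) and 3.60 in cluster 7, against 1159 in cluster 5. S100a8 stood at 3.80% of its cluster 5 level in cluster 2, 0.445% in cluster 6 and 0.155% in cluster 7, where Cd44 stood at 6.21%, 6.00% and 7.25%. Of its cluster 5 level, Ptprc kept 2.24% in cluster 2 and 2.02% in cluster 7 (2 UMIs in 2 cells), and it was at 0 in the shallow cluster 6, where 3 UMIs would allow up to 0.0678 per 10000. The part of leukocyte RNA in the Cd44 of clusters 2, 6 and 7 was not tested.

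Set against the mean of the other clusters, with 0.1 per 10000 added to both, the members that passed 2-fold were few. In cluster 6, 4 of the 10 were at least 2-fold higher (Myc, Ccnd1, Sox9 and Rnf43), where 3.23% of all 17044 genes were. In cluster 4, 2 of 10 were higher (Lgr4 and Tcf7l2; 3.26% of all genes) and 3 lower (Myc, Ccnd1 and Cd44; 7.29%), and cluster 8 had the same members, 2 higher (3.7% of all genes) and 3 lower (9.41%). Cd44, whose reference holds the 9.72 of cluster 5, was also at least 2-fold lower in clusters 0, 1, 3, 9 and 11. These calls are among the lower pairs counted below. Clusters 2 and 7 had 0 members past 2-fold higher, where 0.44% and 3.34% of all genes were; without cluster 6 in the reference there was 1 in cluster 7. Over all pairs of member and cluster, 9 of 120 were higher (7.50%, against 3.34% of all genes) and 26 lower (21.7%, against 7.5%). To the lower pairs the leukocyte clusters 5 and 10 contributed 3 and 5, where 19.4% and 13.2% of all genes were lower. Enteroendocrine-like cluster 11, of 19 cells, added 6 (9.08% of all genes). Some of these calls rest on zeros. Rnf43 was at 0 in clusters 10 and 11, where 3 UMIs would allow up to 0.139 and 0.186. The latter limit is above its level in every cluster except 6, so that zero sets no order. The median log2 fold of the members was 0.36 in cluster 6, 0.30 in cluster 2, 0.24 in cluster 7, -0.12 in cluster 8 and -0.33 in cluster 4, where all genes had medians of -0.01, -0.03, -0.02, -0.11 and -0.10. The counts of higher members depend on these settings: with 1 per 10000 added they were 0 in clusters 4, 6 and 8, and without clusters 5 and 10 in the reference they were 1 in cluster 4 and 1 in cluster 8. Many genes are too low to pass with this pseudocount, which lowers the shares over all genes.

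**Figure D2:**
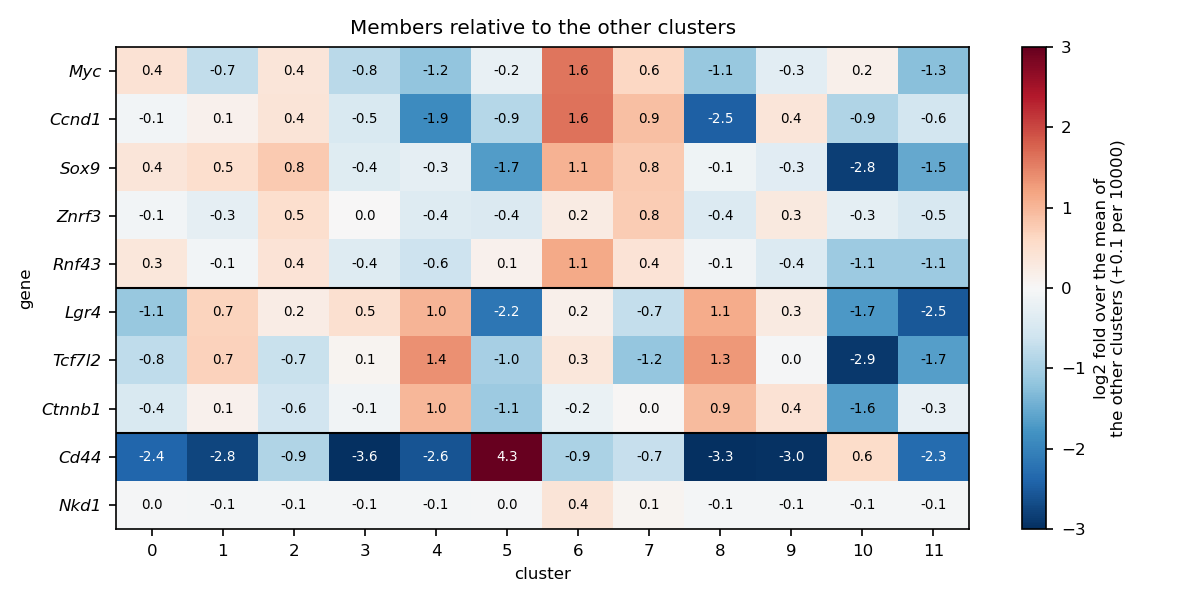
Log2 fold of each member (rows) in each cluster (columns) over the mean of the other clusters, with 0.1 per 10000 added to both; red is higher, blue lower, the colours end at 3 on either side and the numbers give the values. The upper block is red in cluster 6 and blue in clusters 4 and 8 for Myc and Ccnd1, the middle block (Lgr4, Tcf7l2, Ctnnb1) is red in clusters 4 and 8, and Cd44 is red in cluster 5.

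Cluster 6 held the highest level of 5 of the 10 members, Nkd1 among them from 1 UMI in 1 cell, and 14.6% of all genes had their highest level there. It is a shallow cluster of 251 cells (8.14% of the cells) that carried markers of several types. The 5 measured B and plasma cell markers summed to 26.4 per 10000 there against 0.0979 in cluster 7. The 10 enteroendocrine markers, of which 2 were at 0 and 0 passed 2-fold higher, summed to 19.9 against 0.196. Pyy alone held 18.0 of that 19.9. The 7 tuft markers, of which 4 passed 2-fold (3.23% of all genes), summed to 2.94 against 0.0589. The 10 proliferation markers summed to 4.94 in cluster 6 and 20.4 in cluster 7. The mitochondrially encoded share of RNA was 8.05% there, against 2.95% in cluster 7. The part of depth and of other cell types in the levels of cluster 6 was not tested. Among the clusters that are not shallow, Myc and Ccnd1 were highest in cluster 7 and Sox9 and Rnf43 in cluster 2. The largest Nkd1 value among them, 0.00881 in cluster 7, was too low to set an order. Relative to cluster 7, Myc was 2.11-fold higher in cluster 6 (counting interval 1.24 to 3.46) and Ccnd1 1.57-fold (1.16 to 2.08). Lgr4 was 1.96-fold higher (1.28 to 2.94) and Tcf7l2 2.92-fold (2.21 to 3.83). The intervals of the other 6 members included 1. All these intervals may be too narrow, because they use the recovered depth.

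The proliferating-like cluster 7 and the absorptive colonocyte-like cluster 8, of 247 and 197 cells, were compared directly. Cluster 9, where the 10 colonocyte markers summed to 252 against 265 in cluster 8, was not compared in this way. The folds therefore describe cluster 8 and not colonocytes in general. The proliferation gene Mki67 stood at 1.47 in cluster 7 and 0.00661 in cluster 8. Ccnd1 was 88.1-fold higher in cluster 7 (counting interval 24.1 to 732), Myc 29.6-fold (5.12 to 1186), Znrf3 24.0-fold (4.03 to 978) and Cd44 18.6-fold (6.27 to 91.0), each over 1 to 3 UMIs in cluster 8, hence the wide intervals. Sox9 was 1.93-fold higher (1.40 to 2.71), and the interval for Rnf43, 1.82-fold (0.851 to 4.48), included 1. The other 3 detected members were lower in cluster 7: Ctnnb1 at 0.563 of its level in cluster 8 (0.493 to 0.643), Lgr4 at 0.268 (0.204 to 0.352) and Tcf7l2 at 0.188 (0.155 to 0.228). Past 2-fold with 0.1 per 10000 added, 4 of 10 members were higher in cluster 7 (13% of all genes) and 2 lower (7.24%).

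Cluster 4, which also had low Ccnd1 and Myc, gave a similar picture against cluster 7. There 4 of 10 members were past 2-fold higher in cluster 7 (11% of all genes) and 2 lower (6.95%), the same members as against cluster 8. Ccnd1 was 14.5-fold higher in cluster 7 (7.77 to 30.7), Cd44 5.64-fold (3.59 to 9.32) and Rnf43 4.39-fold (1.87 to 12.6), and Tcf7l2 was at 0.180 of its level in cluster 4 (0.151 to 0.214). By the counting intervals, clusters 4 and 8 themselves differed in 1 member, Ccnd1. It was 6.07-fold higher in cluster 4 (1.29 to 56.9), over 2 UMIs in cluster 8. Since intervals may be too narrow, that difference is not secure. The share of ribosomal protein genes was 22.8% in cluster 7 but 5.87% and 4.01% in clusters 4 and 8, and since every cluster is scaled to the same total, this shifts all other genes. With mitochondrial and ribosomal protein genes left out before scaling, Tcf7l2 in cluster 7 was at 0.231 of cluster 8 and Ctnnb1 at 0.693.

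**Figure D3:**
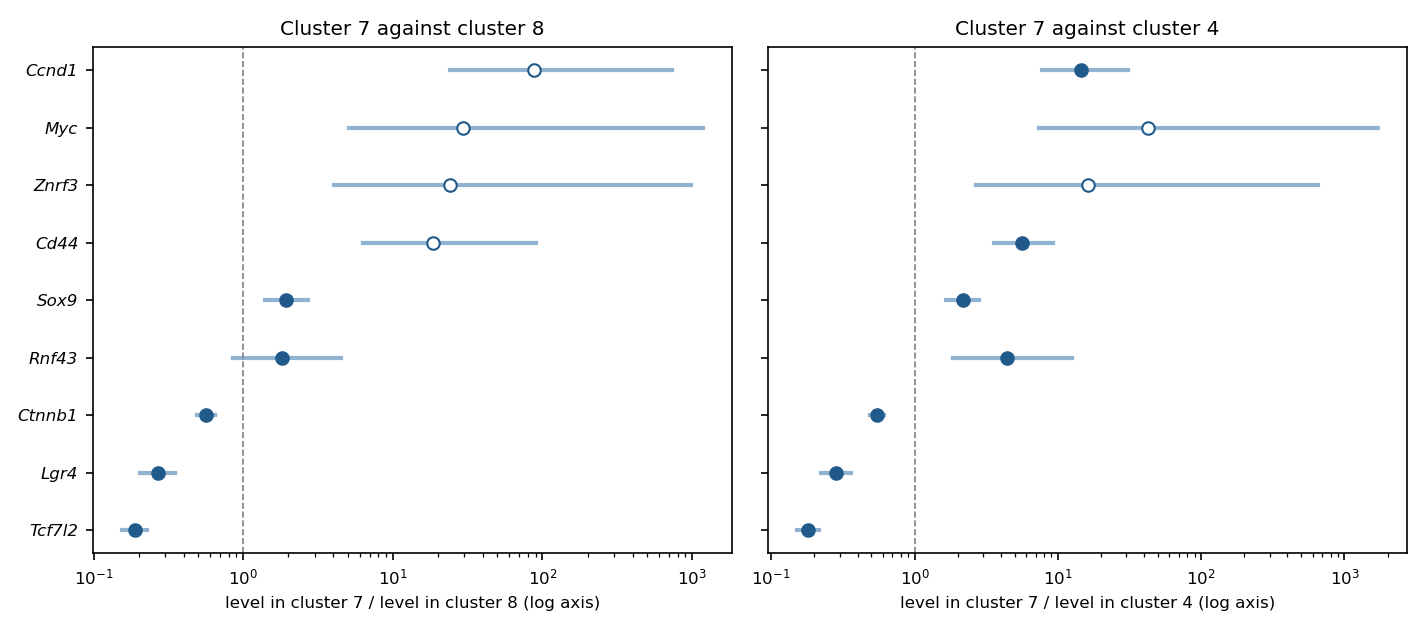
Ratio of the level in cluster 7 to that in cluster 8 (left) and cluster 4 (right) for 9 members (log axis, dashed line at 1), with exact 95% intervals for counting error; open points rest on 3 or fewer UMIs in cluster 8 or 4, and Nkd1 is left out because it is at 0 there. Tcf7l2, Lgr4 and Ctnnb1 lie left of 1 in both panels, and Ccnd1, Myc, Znrf3, Cd44 and Sox9 lie right of it.

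Counted over cells rather than per cell, the sources of each RNA were spread more widely. Of the summed level of Myc, 29.4% was in cluster 6, 22.7% in goblet-like cluster 0, 15.7% in cluster 2 and 13.7% in cluster 7, and for Ccnd1 the shares were 23.1%, 13.8%, 14.5% and 14.5%. Cluster 5, with 8.89% of the cells, held 77.6% of the summed Cd44. Clusters 4 and 8, with 16.9% of the cells together, held 35.6% of the summed Tcf7l2, 31.1% of Lgr4 and 30.6% of Ctnnb1, but 0.792% of Myc and 1.44% of Ccnd1. All cells count equally here, since each was scaled to the same total.

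Likeness between genes was described by Pearson's r of log2(level + 0.1) over the 12 clusters, which share libraries and differ in depth. Over the 10 clusters without 5 and 10, r between Lgr4, Tcf7l2 and Ctnnb1 lay between 0.58 and 0.89 (3 pairs), and among Myc, Ccnd1, Sox9, Znrf3 and Rnf43 between 0.53 and 0.93 (10 pairs). Between the sets r ran from -0.69 (Ccnd1 and Ctnnb1) to 0.41 (Sox9 and Lgr4), over 15 pairs. With all 12 clusters the ranges were 0.73 to 0.85, 0.35 to 0.77 and -0.43 to 0.63. The sets were formed after these values were seen.

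**Figure D4:**
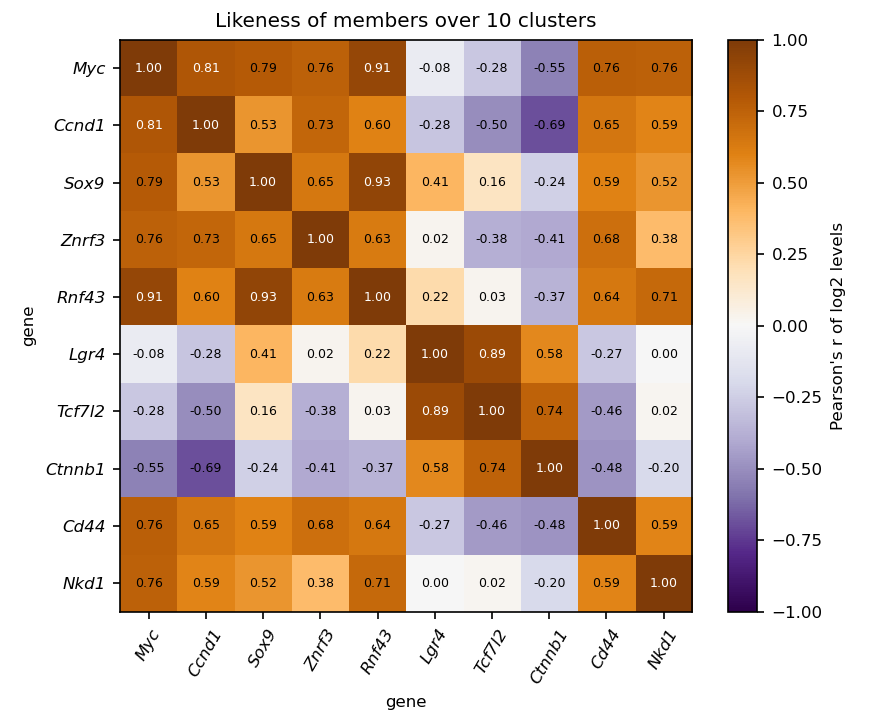
Pearson's r between each pair of members over the 10 clusters without 5 and 10, from log2(level + 0.1); orange is positive and purple negative. Myc, Ccnd1, Sox9, Znrf3 and Rnf43 form a positive block of 0.53 or more, and Lgr4, Tcf7l2 and Ctnnb1 another of 0.58 or more.

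Among genes at 1 per 10000 or more in at least 1 cluster, those most like each member over the 12 clusters were as follows. For Myc they were Taf1d, a subunit of the RNA polymerase I selectivity factor (r = 0.89), Vars, the valine tRNA synthetase (0.88), and AI506816 (0.87). Ccnd1 was closest to 3 genes of ribosomal proteins, Rpsa (0.94), Rpl38 (0.92) and Rpl28 (0.92), and Sox9 to Klf5, a crypt transcription factor (0.97), Deptor, an inhibitor of mTOR (0.94), and Fermt1, which encodes the integrin adaptor kindlin-1 (0.93). Tcf7l2 was closest to Arhgef5 (0.99), Pcdh1, a protocadherin (0.98), and Dsp, desmoplakin (0.97), Lgr4 to Tradd (0.98), Cd2ap (0.98) and Dok4 (0.97), and Ctnnb1 to Eps8l2 (0.97), Hist1h2bc (0.97) and Misp (0.96). Cd44 was closest to Ier3 (0.97), Zyx (0.97) and Srgn (0.95), Znrf3 to Timm50, Kcne3 and Mecr (0.88 each), and Rnf43 to Prrc2c (0.85), mt-Nd2 (0.83) and Cdv3 (0.80). For Nkd1 the closest were Dclk1 (0.95), Jchain (0.94) and Safb (0.91), genes high in cluster 6. That likeness rests on the 1 UMI of Nkd1 there. Taf1d, Vars, Rpsa, Rpl38, Rpl28, Deptor, Fermt1, Prrc2c, mt-Nd2 and Cdv3 were also highest in the shallow cluster 6. The part of that cluster in the likeness was not tested.

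Other targets and feedback genes of the pathway were read from a list of 18, of which 15 were measured. In cluster 7, 4 of the 15 passed 2-fold higher (3.34% of all genes) and 8 had their highest level (11.5% of all genes); in cluster 6, 4 of 15 passed 2-fold higher (3.23%). Cdca7, a MYC-responsive gene of dividing cells, was at 0.746 in cluster 7 (0.648 to 0.855) and Ephb3, a receptor that positions crypt cells, at 0.658 (0.566 to 0.760), though Ephb3 also held 0.466 in cluster 4. Axin2, the most used reporter of Wnt activity, was at 0.127 in cluster 7 (0.0882 to 0.176), 0.0999 in cluster 6, 0.0776 in cluster 2 and 0.0495 in cluster 0. Its 0.114 in cluster 11 was 1 UMI, while it was at 0 in cluster 1, where 3 UMIs allow up to 0.0101, and in clusters 4 and 8 came from 1 UMI each. Ascl2, the stem cell transcription factor, held 0.206 in cluster 7 (0.156 to 0.267), then 0.156 in cluster 6, and was at 0 in clusters 4 and 8. The 4 genes of the list with the highest levels had varied orders. They were the intestinal homeobox genes Cdx1 (4.33 in cluster 7, with 4.19 in cluster 2 and 3.98 in cluster 9) and Cdx2 (3.43 in cluster 9, 0.853 in cluster 7), Prom1, which encodes prominin 1 (3.95 in cluster 4, 1.17 in cluster 7), and the chloride cotransporter gene Slc12a2 (2.18 in cluster 6, 1.97 in goblet-like cluster 0, 0.00665 in cluster 8).

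The listed cadherin and junction genes were high where Ctnnb1 was. Cdh17 is among them as a cadherin and not as a binder of beta-catenin. All 6 listed genes had their highest level in cluster 4 or 8, as 15.5% of all genes did, and 4 of 6 passed 2-fold higher in cluster 4 (3.26% of all genes) and 2 of 6 in cluster 8 (3.7%). Cdh1, E-cadherin, reached 6.88 in cluster 8 (6.34 to 7.44), 5.30 in cluster 4 and only 1.92 in cluster 7. Jup, plakoglobin, the closest relative of beta-catenin, was at 2.97 in cluster 4 and 1.22 in cluster 7, Cdh17 at 3.44 and 1.37, and Ctnna1, alpha-catenin, at 2.29 and 1.06. As scaled, Epcam was also lower in cluster 7 (28.3) than in clusters 4 (37.6) and 8 (33.1). Its cluster 7 level was 0.855 of the cluster 8 level. Leaving out mitochondrial and ribosomal protein genes raised the same ratio of Tcf7l2 from 0.188 to 0.2315. A shift of that proportion would leave Epcam no lower in cluster 7 than in cluster 8, so their order cannot be read. Epcam and the listed junction genes were not rescaled in this way.

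**Figure D5:**
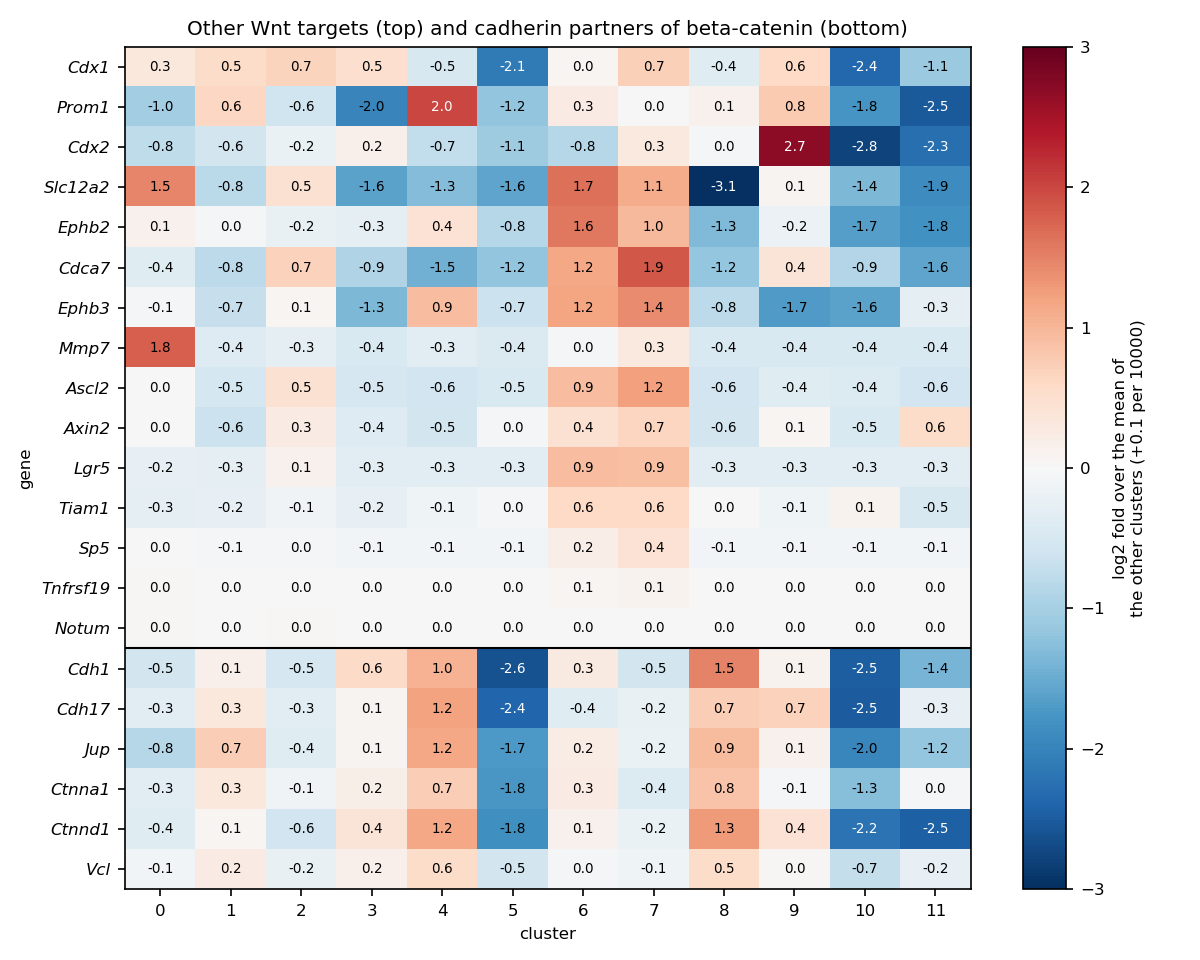
Log2 fold in each cluster (columns) against all other clusters' mean, with 0.1 per 10000 added. Above the line are 15 other Wnt targets and below it 6 cadherin and junction genes. Red is higher, blue lower, and colours end at 3 on either side. Ephb2, Cdca7, Ephb3, Ascl2, Axin2 and Lgr5 are red in clusters 6 and 7, and the cadherin and junction genes are red in clusters 4 and 8.

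Upstream of beta-catenin, few genes passed 2-fold. Of 14 measured receptor genes, 1 was 2-fold higher in cluster 8 (3.7% of all genes) and 1 in cluster 6 (3.23%), counts too small to set apart from those shares. The former was Lrp6, the LRP co-receptor, at 1.16 (0.949 to 1.41) against 0.246 in cluster 7, and the latter its paralog Lrp5, at 0.421 against 0.150. Fzd5, the Frizzled with the highest level, reached 0.579 in cluster 8, 0.460 in cluster 4 and only 0.325 in cluster 7. Among 15 destruction complex and Dishevelled genes, 7 were highest in cluster 6 (14.6% of all genes) and 2 were 2-fold higher there (3.23%), and Gsk3b, the kinase that marks beta-catenin, was at 1.38 in cluster 6 and 0.822 in cluster 7. Csnk1a1, the priming kinase, ranged from 1.01 in cluster 5 to 3.39 in cluster 11. Of the beta-catenin cofactors, 4 of 13 measured genes were 2-fold higher in cluster 11 (11.1% of all genes), among them the corepressor Tle1 at 1.21 (0.727 to 1.89). Ctnnbip1, which encodes an inhibitor of the contact between beta-catenin and TCF, stood at 0.924 in cluster 0, at 0.895 in cluster 11 and no higher than 0.372 elsewhere.

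Ligand RNA was scarce in these cells. Of 25 ligand, R-spondin and secretion genes, 8 were measured. Wls, which carries Wnt proteins to the surface, was found in every cluster, from 0.182 in cluster 10 to 0.729 in cluster 9. Wnt3 was at 0.281 in enteroendocrine-like cluster 11 (0.0913 to 0.656) and no higher than 0.00354 elsewhere, Wnt4 was at 0.0683 there from 1 cell, and Wnt8b reached 0.0622 in cluster 3. None of the 4 R-spondin genes was analysed here.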

How the data were processed

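The authors deposited 1 table, made, per the submitters' processing notes, with Cell Ranger 3.1.0, Seurat 2.3 and the mouse build mm10 (GRCm38); how cells were filtered, doublets treated and clusters drawn, and with which annotation, is not given in the sources used here. Its values are the authors' averages over the cells of a cluster, in UMIs per 10000 on a linear scale, as read from the values: each column sums to 10000. Every test was replaced by description, because columns pool the libraries.

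A gene with 1 UMI in 1 cell averages 10000 over the product of cell number and that cell's total, so the inverse is whole (relative tolerance 1e-12). Each cluster's cell number is the best divisor of these whole values, of which it divided 97.2% to 100%. Totals needed 2 genes each, and fractions of better supported totals were dropped. Intervals are exact Poisson 95% intervals on approximate UMIs (level times cell number times harmonic mean depth); a level of 0 allows up to 3 UMIs. Ratio intervals are exact conditional binomial (Clopper-Pearson). A level was assigned to 1, 2 or 3 cells where whole UMIs of identified cells gave it within 1e-13. On simulated cells of all 17044 genes the number of cells was recovered in 12 of 12 clusters, and the harmonic mean came out 1.05 to 2.37 times the true one, so intervals may be too narrow. In a simulated cluster 6, 50 of 50 genes raised 4-fold and 1 of 50 raised 2-fold were called, with 1 false call among 16844 genes. The raised genes all had higher mean levels than Myc, Ccnd1 and Rnf43, and counts were drawn at the recovered depth. How reliably such low members are called in cluster 6 was therefore not tested.

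Folds compare a cluster with the mean of the others, with a pseudocount of 0.1 per 10000, which understates folds of low genes. The members and lists were chosen with earlier results of these data known. Named were the members, the 4 highest genes of each of 7 pathway lists where described, the 3 genes most like each member, and Axin2, Lgr5, Ascl2, Tcf7, Lef1, Mki67, Epcam and Ptprc; Cdca7, Ephb2, Ephb3, S100a8 and Mmp7 were chosen after their values were seen. Clusters were called like a type from 12 marker lists, only where no leading gene spoke for another type and, in a shallow cluster, a marker was among the top 10 genes. Endothelial and fibroblast lists had 3 and 2 measured genes. Python 3.11.15, numpy 2.4.6, pandas 2.3.3 and scipy 1.17.1 were used. Alternatives covered pseudocounts, reference, scaling, fold, filter, depth, likeness and motif.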

Additional observations from a re-analysis of the deposited data

How the results depend on the processing

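Of the results on counts, medians and pairs, those not named here stayed within 1.5 times (counts) or within counting error (medians), which is wide for the shallow cluster 6. With a pseudocount of 0.01 the members at least 2-fold higher were 1 in cluster 2 and 2 in cluster 7, those lower in cluster 4 were 5, the medians of clusters 4, 6 and 7 were -0.91, 0.91 and 0.60, and the pairs higher were 14. With a pseudocount of 1 the members higher were 0 in clusters 4, 6 and 8, those lower were 1 in cluster 4 and 1 in cluster 8, the median of cluster 7 was 0.055, and the pairs were 1 higher and 6 lower. With a reference weighted by cells 2 members were higher in cluster 6 and 1 each in clusters 4 and 8, and the pairs higher 5. With the median of the other clusters as reference, the members higher were 1 in cluster 2 and 2 in cluster 7, those lower 1 in cluster 4 and 1 in cluster 8, the medians of clusters 2, 6 and 7 were 0.55, 1.02 and 0.65, and the pairs were 15 higher and 14 lower. Without cluster 5 in the reference 1 member was higher in cluster 4, and without cluster 6 in it 1 was higher in cluster 7. Without clusters 5 and 10 in it 1 was higher in each of clusters 2, 4, 7 and 8. Without mitochondrial and ribosomal protein genes 1 was higher in cluster 4 and 1 in cluster 8. At 4-fold the members higher were 0 in clusters 4, 6 and 8, those lower in cluster 4 were 1, and the pairs were 1 higher and 12 lower; at 1.5-fold the members higher were 1 in cluster 2 and 4 in cluster 7, and the pairs higher 18. The shorter motif was in windows of 2 members against 0. The causes were not tested. The members' ratios between clusters kept their direction after the rescaling. Most genes named as alike lost first place to another gene. That held for 8 of 10 by Spearman's rank correlation and for 10 of 10 without clusters 5 and 10. Pseudocounts of 0.01 and 1 moved the median fold of all genes in a cluster by up to 0.34 and 0.20, and the rescaling by up to 0.11. The median depth in place of the harmonic mean moved the UMIs behind the highest level beyond counting error for 6 of 10 members, and without the shallow clusters 5 and 6 the highest cluster changed for 6 of 10. Depth limits Nkd1, Znrf3 and Rnf43 in the small or shallow clusters 5, 6, 10 and 11. No paired analysis was possible because the columns carry no replicate numbers, and leaving out a library was not run for the same reason.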

Other observations

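Enteroendocrine-like cluster 11, of 19 cells, held the highest levels of 2 secreted Wnt inhibitors. Myc, Znrf3, Rnf43 and Nkd1 were at 0 there, where 3 UMIs would allow up to 0.186. That limit is above the highest level of Znrf3 and Nkd1 in any cluster, so these zeros set no order. The other members were detected there, among them Ccnd1 at 0.291. Wif1, which binds Wnt proteins, was at 0.464 per 10000 (0.187 to 0.957), from UMIs of 3 cells, and at 0.00548 in cluster 7, the next. Sfrp5, a secreted Frizzled-related protein, was at 0.326 (0.106 to 0.761) and at 0.0335 in cluster 6. With so few cells, how widely these genes are used in that cluster cannot be read from the averages. Kremen2, a receptor for the DKK inhibitors, was instead highest in cluster 4, at 0.598 (0.486 to 0.728). Mmp7, the matrilysin gene and a Wnt target of tumours, was at 0.283 in goblet-like cluster 0 (0.236 to 0.336) and at most 0.0615 elsewhere.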
